A study of Mus musculus with 10 samples.

Results

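Classical monocytes are the blood monocytes that leave the bone marrow, enter injured tissue through the chemokine receptor CCR2 and turn into macrophages there. In mouse they carry much Ly6C on their surface, and their RNA is known for a small set of genes, most of which resident macrophages of the brain and retina hold at low levels. Such genes, found as 7 rows of the deposited table, were described: Ly6c2, Plac8, Chil3, Vcan, Fn1, Ace and F10. They were taken by symbol from a set named with earlier results of these data known, and all 7 of 7 were found among 21866 genes. The set covers several roles. Ly6c2 encodes the Ly6C surface antigen and Plac8 a small intracellular protein of myeloid and lymphoid cells. Chil3 encodes Ym1, a secreted chitinase-like protein also made by neutrophils and alternatively activated macrophages. Ace encodes angiotensin-converting enzyme, which in mouse blood is better known from the non-classical monocytes that patrol vessels, and F10 encodes coagulation factor X. Fn1 and Vcan encode fibronectin and versican, a glycoprotein and a proteoglycan of the extracellular matrix.

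RNA was sequenced from 5 CD36-positive and 5 CD36-negative samples of sorted mouse retinal cells. All were live cells positive for CD11b with an intermediate level of CD45, a gate commonly used for microglia, and the labels call both microglia. They differed in surface CD36, a scavenger receptor that takes up lipids. The titles give all 10 samples as WT, and the strain, age and sex are not given in the sources used here. The study injected sodium iodate, which damages the retinal pigment epithelium, at 20 mg/kg or the vehicle and took eyes 7 days later. Whether the sorted samples came from injected or from vehicle mice is not stated, nor is it stated that each came from separate animals. P-values therefore measure the spread between these samples, which may be technical in part. Libraries are numbered as in their descriptions (1, 2, 3, 4 and 7 in the CD36-positive group, and 1, 2, 4, 7 and 8 in the CD36-negative group).

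The libraries held 5001413 to 13250312 counts, with 13529 to 15087 genes detected. Values are CPM, counts relative to a common library size, on libraries scaled by TMM, which evens out differences in composition. For a gene at 0, 3 counts, about the 95% upper limit on the expected count, correspond to 0.226 to 0.5998 CPM of the unscaled total. Such limits cover counting error only. Cd36 averaged 218 ± 39.8 CPM in CD36-positive libraries against 50.2 ± 5.50 CPM in CD36-negative ones (SD, n = 5 each), with no overlap, so the sorted marker followed the labels. The microglial genes Tmem119 and P2ry12 were present in every library. Tmem119 averaged 819 ± 340 CPM in CD36-positive libraries against 686 ± 243 CPM in CD36-negative ones, and the groups overlapped.

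In CD36-positive cells 4 of the 7 genes, Ly6c2, Plac8, Chil3 and Ace, were lower, 0 were higher and 3 (F10, Fn1 and Vcan) did not pass the threshold, an adjusted p of 0.05 over the 11594 genes tested. Over all genes tested, 4.74% were lower and 2.61% were higher by the same rule. In 5 of the 7 genes, F10 being the fifth, every CD36-positive library lay below every CD36-negative library, a pattern found in 5.82% of all genes tested. The median log2 fold change of the 7 genes was -3.46, against 0.02 over all genes tested. All 7 passed the filter on low counts. Fold changes are CD36-positive over CD36-negative throughout. In such bulk samples fewer cells of a type and less RNA per cell cannot be told apart.

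**Figure D1:**
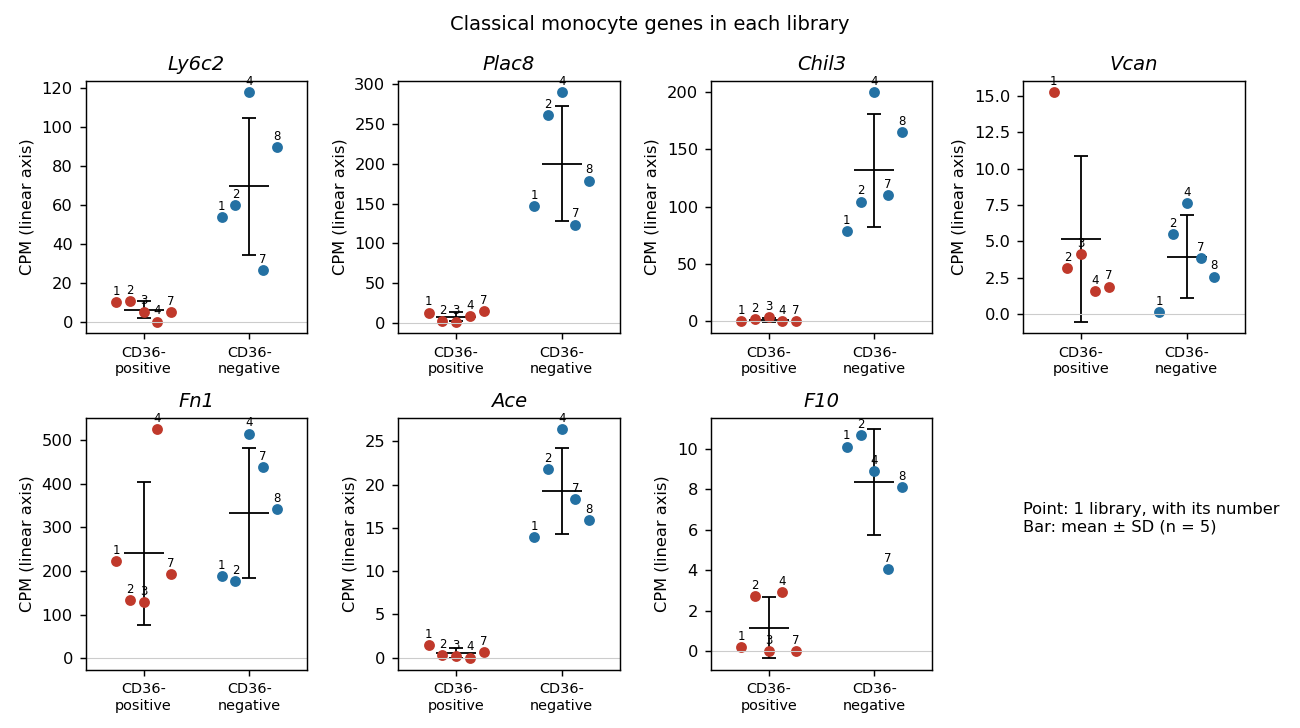
CPM of the 7 genes in each library on linear axes that differ between panels, with CD36-positive libraries at left and CD36-negative at right, and bars for mean ± SD (n = 5). The groups do not overlap for Ly6c2, Plac8, Chil3, Ace and F10, while they overlap for Fn1 and Vcan, where CD36-positive library 4 (525 CPM of Fn1) and library 1 (15.2 CPM of Vcan) stand above the rest of their group.

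The 4 genes that fell lie on different chromosomes, and the bases before their starts are shown because these genes fell together. The windows are the 250 bases before the first-listed start in RefSeq (GRCm38.p6), read 5′ to 3′ on the gene's strand. They were searched on both strands for GAGGAA, a core of sites of the myeloid factor PU.1, for TTGCNNAA, a form of C/EBP sites, and for GAAA followed by any pair of bases and GAAA again, a form of interferon-response elements. The shares of all 32851 promoters holding them were 23.3%, 9.56% and 2.98%. Capitals mark GAGGAA or its reverse complement TTCCTC. The windows are chr15:75111972-75112221 (minus strand) for Ly6c2, chr5:100572206-100572455 (minus) for Plac8, chr11:105967698-105967947 (plus) for Ace and chr3:106167565-106167814 (minus) for Chil3. Ly6c1, the near copy of Ly6c2, is shown from chr15:75048838-75049087 (minus).
Ly6c2: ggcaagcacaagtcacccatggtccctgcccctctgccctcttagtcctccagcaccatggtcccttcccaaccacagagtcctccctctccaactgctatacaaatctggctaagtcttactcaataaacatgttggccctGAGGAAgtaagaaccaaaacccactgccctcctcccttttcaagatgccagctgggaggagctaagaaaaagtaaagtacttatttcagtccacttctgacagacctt
Plac8: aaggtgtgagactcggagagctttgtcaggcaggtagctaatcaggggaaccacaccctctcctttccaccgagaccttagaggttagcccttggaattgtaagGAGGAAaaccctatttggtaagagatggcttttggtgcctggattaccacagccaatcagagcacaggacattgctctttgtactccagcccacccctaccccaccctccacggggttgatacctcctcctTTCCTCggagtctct
Ace: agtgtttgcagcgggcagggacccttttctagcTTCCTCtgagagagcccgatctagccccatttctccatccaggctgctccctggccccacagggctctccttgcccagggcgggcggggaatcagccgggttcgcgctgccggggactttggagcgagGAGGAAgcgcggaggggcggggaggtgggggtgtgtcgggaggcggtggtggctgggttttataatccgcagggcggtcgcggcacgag
Chil3: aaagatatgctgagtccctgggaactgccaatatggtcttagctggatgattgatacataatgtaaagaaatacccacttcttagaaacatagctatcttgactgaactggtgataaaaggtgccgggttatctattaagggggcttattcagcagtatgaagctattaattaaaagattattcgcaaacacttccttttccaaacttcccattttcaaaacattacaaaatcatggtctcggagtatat
Ly6c1: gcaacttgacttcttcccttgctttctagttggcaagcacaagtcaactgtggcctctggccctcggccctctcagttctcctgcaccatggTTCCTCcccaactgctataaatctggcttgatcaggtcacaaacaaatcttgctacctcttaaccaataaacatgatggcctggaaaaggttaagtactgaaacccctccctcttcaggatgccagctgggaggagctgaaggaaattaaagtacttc

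GAGGAA stood 108 bases before the start in Ly6c2, at 146 and, reversed, at 15 bases in Plac8, and at 89 and, reversed, at 217 bases in Ace. Annotations differ here, since GENCODE places the start of Plac8 at 100572245, upstream of the RefSeq one used. The site at 15 bases in Plac8 thus lies inside the GENCODE gene. Ly6c1 held it reversed at 158 bases. Chil3, Vcan and F10 held none in this window, and neither of the other motifs occurred in any of these 7 windows, that of Ly6c1 included. Of the 6 genes with a window, Ly6c1 aside, 3 held these letters, against 23.3% of all promoters, and so few windows allow no comparison between genes that fell and genes that did not. A match is a description of letters and not a binding site. Of the 7 genes 6 were matched in the RefSeq table, all but Fn1. Ly6c2, Ly6c1, Plac8 and Ace have 2 listed starts each. In a global alignment the Ly6c2 and Ly6c1 windows of the first-listed starts shared 164 of 284 aligned columns, or 57.7%, and the other pairings of their starts shared 44.3% to 45.3%.

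Ly6c2 (chromosome 15, 75108158 to 75111970, minus strand) gives the Ly6C antigen by which classical monocytes are sorted. It had 10.2, 10.8, 5.43, 0.337 and 5.06 CPM in CD36-positive libraries 1, 2, 3, 4 and 7. In CD36-negative libraries 1, 2, 4, 7 and 8 it had 53.9, 60.1, 118, 26.6 and 89.5 CPM. The groups did not overlap, and the lowest CD36-negative library was 7 and the lowest CD36-positive one 4, with 3 counts. The means were 6.37 ± 4.29 CPM in CD36-positive libraries against 69.5 ± 35.0 CPM in CD36-negative ones (SD, n = 5 each), so that the CD36-negative mean was 10.9 times the CD36-positive one. The log2 fold change was -3.46 (SE 0.55, 95% confidence interval -4.63 to -2.30, adjusted p = 0.000598 by edgeR's quasi-likelihood test with Benjamini-Hochberg adjustment).

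Its near copy Ly6c1 shares sequence with it. Of the 50-base windows of Ly6c2 transcripts, 14.4% occur in another gene, 13.9% in Ly6c1, so some reads could have been split between them. Ly6c1 had 4.08, 0.788, 1.71, 0.225 and 0.237 CPM in CD36-positive libraries. In CD36-negative libraries it had 0.171, 0.301, 0.408, 0 and 0.5001 CPM, too low to be tested. The groups overlapped, with CD36-positive libraries 1, 2 and 3 above every CD36-negative one, while Ly6c2 lay lower in those libraries than in any CD36-negative one.

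Elsewhere in the Ly6 family, 12 other genes were in the table and 3 could be tested, with 1 higher, 1 lower and 1 not passing. Ly6a, which encodes the Sca-1 antigen of stem cells and of interferon-exposed cells, was higher, at 446 ± 134 CPM in CD36-positive libraries against 176 ± 53.2 CPM in CD36-negative ones (SD, n = 5 each; log2 fold change 1.34, SE 0.24, adjusted p = 0.00167 by edgeR). Ly6i, a close relative of Ly6c2, was lower, at 1.71 ± 1.44 CPM in CD36-positive libraries against 11.2 ± 6.51 CPM in CD36-negative ones (log2 fold change -2.69, SE 0.74, adjusted p = 0.0348 by edgeR). That call was lost when any of 5 libraries, CD36-positive 2 and 4 and CD36-negative 4, 7 and 8, was left out. Ly6e, a widely expressed family member, had a log2 fold change of 0.59 (SE 0.19, adjusted p = 0.0724 by edgeR).

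Plac8 (chromosome 5, 100553725 to 100572245, minus strand) was the highest of the set in CD36-negative libraries once gene length was counted. It had 12.99, 2.25, 1.71, 8.20 and 14.5 CPM in CD36-positive libraries 1, 2, 3, 4 and 7. CD36-negative libraries 1, 2, 4, 7 and 8 had 147, 261, 290, 123 and 179 CPM. The highest CD36-positive library, 7, lay well under the lowest CD36-negative one, also numbered 7. The means were 7.92 ± 5.90 CPM in CD36-positive libraries against 200.2 ± 72.3 CPM in CD36-negative ones (SD, n = 5 each), and the CD36-negative mean was 25.3 times the CD36-positive one. Plac8 changed by -4.65 on the log2 scale (SE 0.49, 95% confidence interval -5.69 to -3.61, adjusted p = 1.115e-05 by edgeR). None of its 50-base transcript windows was shared with another gene.

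Chil3 (chromosome 3, 106147554 to 106167564, minus strand) was listed at 0 in 3 CD36-positive libraries, 1, 4 and 7, and had 1.80 and 3.14 CPM in libraries 2 and 3. The CD36-negative values, in libraries 1, 2, 4, 7 and 8, were 78.5, 104, 200, 110 and 165 CPM. Its 38 counts over the CD36-positive group came from those 2 libraries, with 16 and 22, against 6955 counts over the CD36-negative group. The log2 fold change was -7.11 (SE 0.73, 95% confidence interval -8.65 to -5.57, adjusted p = 8.02e-06 by edgeR), the furthest from 0 among the 7 genes, and the groups did not overlap. Without CD36-positive library 3 it was -8.14, so the size of the change, though not the call, rested in part on 22 counts.

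Close relatives bear on Chil3 as on Ly6c2. Of its 50-base transcript windows, 26.9% occur in another gene and 16.9% in Chil4, the neighbouring gene for Ym2. Chil4 was too low to be tested, with a mean of 0.164 CPM in CD36-positive libraries and 0 in all CD36-negative libraries. Chil1, another chitinase-like gene, was also too low, at 0.347 ± 0.308 CPM in CD36-positive libraries against 4.74 ± 4.27 CPM in CD36-negative ones (SD, n = 5 each), and these groups did not overlap. Of the other chitinase-family genes 2 could be tested and 0 passed by edgeR in either direction. Chil1 passed the filter on low counts when any of CD36-positive 1, 3, 4 and 7 and CD36-negative 1 and 7 was left out, and was then lower.

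Ace (chromosome 11, 105967945 to 105989964, plus strand) had 1.48, 0.338, 0.143, 0 and 0.632 CPM in CD36-positive libraries 1, 2, 3, 4 and 7. In CD36-negative libraries 1, 2, 4, 7 and 8 it had 13.9, 21.8, 26.4, 18.3 and 15.9 CPM. The CD36-negative libraries lay within a factor of 1.89 of each other, the narrowest range of any of the 7 genes in either group, and all of them lay above every CD36-positive one. Ace changed by -5.27 on the log2 scale (SE 0.66, 95% confidence interval -6.67 to -3.88, adjusted p = 5.93e-05 by edgeR), and -5.95 without CD36-positive library 1. The CD36-positive group held 20 counts in all, and the CD36-negative group 1006. The antisense gene Gm11651 overlaps Ace, and since the sources do not state whether counting used the strand, reads of the 2 genes may not have been told apart.

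The renin-angiotensin genes around Ace did not follow it as a group. Of 22 listed, 8 could be tested, with 0 higher, 1 lower and 7 not passing, and their median log2 fold change was -0.16. The gene that fell, Anpep, encodes aminopeptidase N, which trims angiotensin peptides and is a surface marker of myeloid cells (CD13). It averaged 1.79 ± 1.26 CPM in CD36-positive libraries against 15.6 ± 5.41 CPM in CD36-negative ones (SD, n = 5 each; log2 fold change -3.08, SE 0.51, adjusted p = 0.000848 by edgeR). Prcp, a carboxypeptidase that cleaves angiotensin II, had a log2 fold change of -0.56 (SE 0.17, adjusted p = 0.0609 by edgeR). Without CD36-positive library 2 the count of genes that were lower was 2. Ren1 and Agtr2 were at 0 in every library, and Cma1 in every CD36-positive one.

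F10 (chromosome 8, 13037308 to 13056676, plus strand) had 0.186, 2.70, 0, 2.92 and 0 CPM in CD36-positive libraries 1, 2, 3, 4 and 7. Its level in CD36-negative libraries 1, 2, 4, 7 and 8 was 10.1, 10.6, 8.87, 4.06 and 8.09 CPM. The groups did not overlap, but CD36-positive library 4 and CD36-negative library 7 came close. The means were 1.16 ± 1.51 CPM in CD36-positive libraries against 8.35 ± 2.60 CPM in CD36-negative ones (SD, n = 5 each). The log2 fold change of -2.81 (SE 0.96, 95% confidence interval -4.84 to -0.78) did not pass (adjusted p = 0.0914 by edgeR's quasi-likelihood test). It passed by DESeq2's Wald test (adjusted p = 0.0153), by limma's voom (0.0363) and by edgeR with no filter on low counts (0.0375). The gene rested on 51 counts over the CD36-positive group and 447 over the CD36-negative group, the fewest of any of the 7 genes in CD36-negative libraries except Vcan.

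Of 29 other genes of coagulation and its control, 13 could be tested, and 0 were higher, 1 was lower and 12 did not pass by edgeR, with a median log2 fold change of -0.32. F13a1, the transglutaminase subunit that crosslinks fibrin and a gene that monocytes and border macrophages are known for, averaged 8.15 ± 7.53 CPM in CD36-positive libraries against 62.5 ± 43.4 CPM in CD36-negative ones (SD, n = 5 each). Its log2 fold change was -2.93 (SE 0.64, adjusted p = 0.00797 by edgeR), and -3.54 without CD36-positive library 3. Procr, the protein C receptor, had a log2 fold change of -2.97 (SE 0.91, adjusted p = 0.0587 by edgeR). Tfpi, an inhibitor of factor X activation, had one of 1.10 (SE 0.37, adjusted p = 0.0873 by edgeR). Leaving out CD36-positive library 1 gave 3 genes that were lower, leaving out library 3 gave 2, and leaving out both, the shallowest of that group, gave 4. Without CD36-negative library 1 or 8, 1 gene was higher.

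Fn1 (chromosome 1, 71585520 to 71653200, minus strand) behaved unlike the genes above. It had 222, 134, 129, 525 and 194 CPM in CD36-positive libraries 1, 2, 3, 4 and 7. CD36-negative libraries 1, 2, 4, 7 and 8 had 189, 177, 515, 439 and 342 CPM. The groups overlapped over most of their range, and CD36-positive library 4 was the highest of all 10. The means were 241 ± 164 CPM in CD36-positive libraries against 332 ± 149 CPM in CD36-negative ones (SD, n = 5 each). The log2 fold change was -0.47 (SE 0.37, 95% confidence interval -1.25 to 0.31, adjusted p = 0.511 by edgeR), so a fall of up to 1.25 or a rise of up to 0.31 on the log2 scale lay within its interval. Without CD36-positive library 4 it was -0.98 (adjusted p = 0.0654 by edgeR). The antisense gene Apol7d overlaps Fn1.

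Vcan (chromosome 13, 89655312 to 89742509, minus strand) was low in both groups. It had 15.2, 3.15, 4.14, 1.57 and 1.90 CPM in CD36-positive libraries 1, 2, 3, 4 and 7. In CD36-negative libraries 1, 2, 4, 7 and 8 it had 0.171, 5.52, 7.65, 3.85 and 2.58 CPM. The groups overlapped, and the libraries numbered 1 held the highest value of the CD36-positive group and the lowest of the CD36-negative group. The log2 fold change was 0.38 (SE 0.81, 95% confidence interval -1.33 to 2.09, adjusted p = 0.838 by edgeR). Without CD36-positive library 1 it was -0.57. With all 10 libraries and their title numbers fitted as a block it was -0.10, so its direction was not settled. The pseudogene Gm16318 and the antisense gene Gm4117 overlap Vcan.

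Of 35 other matrix genes and matrix receptors, 14 could be tested, with 3 higher, 1 lower and 10 not passing by edgeR and a median log2 fold change of -0.20. Itgb7, an integrin subunit by which leukocytes home to gut and bind fibronectin and cell-surface ligands, was lower. It averaged 3.14 ± 2.40 CPM in CD36-positive libraries against 218 ± 52.1 CPM in CD36-negative ones (SD, n = 5 each; log2 fold change -6.07, SE 0.51, adjusted p = 1.45e-06 by edgeR). Itga9 was higher, at 51.6 ± 19.0 CPM in CD36-positive libraries against 18.1 ± 5.70 CPM in CD36-negative ones (log2 fold change 1.51, SE 0.30, adjusted p = 0.00357 by edgeR). Itgav, whose product is another integrin chain of fibronectin receptors, was also higher (log2 fold change 0.81, SE 0.17, adjusted p = 0.00698 by edgeR). The other gene that was higher, Tgfbi, is a secreted matrix protein also listed with monocyte genes, and was named after its values were seen. Its log2 fold change was 0.72 (SE 0.17, adjusted p = 0.0137 by edgeR), and the call was lost without CD36-negative library 4. Leaving out CD36-positive library 2 gave 2 genes that were lower, and leaving out library 4 gave 3.

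**Figure D2:**
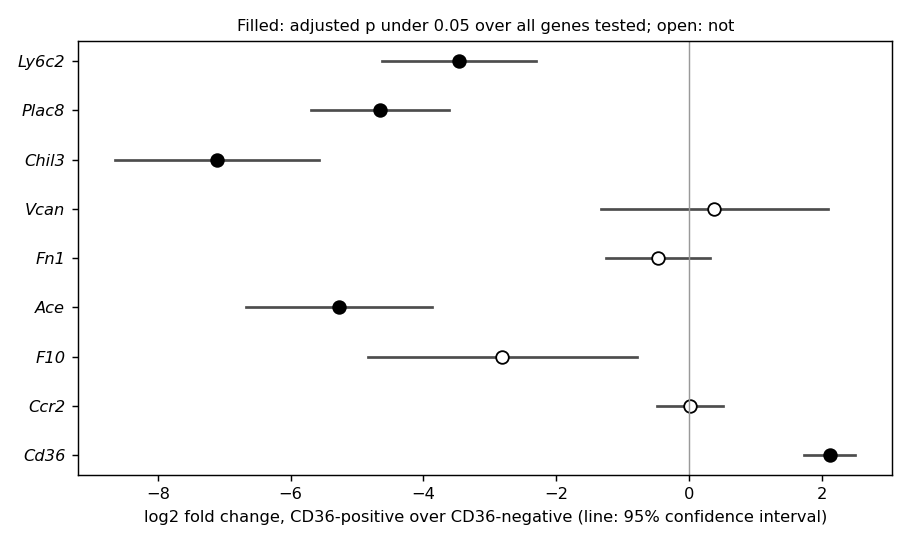
Log2 fold change of the 7 genes and of Ccr2 and Cd36, CD36-positive over CD36-negative, with 95% confidence intervals; filled points passed an adjusted p of 0.05 over all genes tested by edgeR. Chil3 (-7.11), Ace (-5.27), Plac8 (-4.65) and Ly6c2 (-3.46) are filled and lie left of 0, the interval of F10 (-4.84 to -0.78) lies left of 0 with an open point, and those of Fn1, Vcan and Ccr2 cross 0.

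The groups thus lay apart for 5 genes and overlapped for the matrix genes Fn1 and Vcan. The ratio of each of the 5 to Fn1 within a library sets the genes side by side in the same sample. Both the 5 genes and Fn1 were chosen for these ratios after their values, and whether their groups overlapped, were seen, so the ratios are a description and carry no test. On the log2 scale with a prior count of 2, Plac8 averaged -5.12 relative to Fn1 in CD36-positive and -0.68 in CD36-negative libraries, a difference of -4.44 with no overlap between groups. The differences were -7.22 for Chil3, -4.53 for Ace, -3.24 for Ly6c2 and -3.01 for F10. The prior count, scaled to library size, sets the ratios of genes at or near 0, and with one of 0.5 the differences were -8.45 for Chil3, -5.27 for Ace and -3.96 for F10. The groups did not overlap for Plac8, Chil3 and Ace, and overlapped for Ly6c2 and F10. For Ly6c2 the ratios ran between -9.91 and -3.60 in CD36-positive and between -4.04 and -1.56 in CD36-negative libraries. A ratio shows unequal change of its genes and not that Fn1 was stable.

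**Figure D3:**
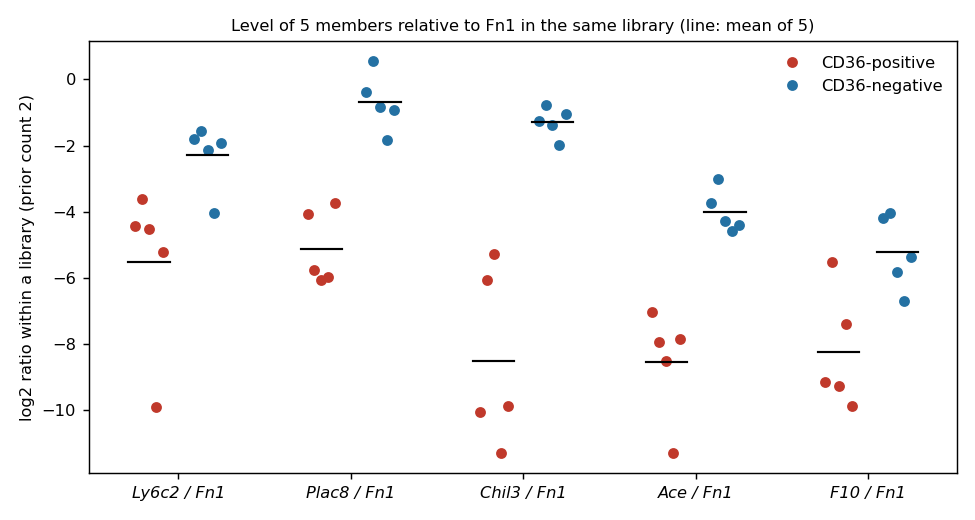
Log2 ratio of 5 genes to Fn1 within each library (prior count 2), with CD36-positive libraries left of CD36-negative ones for each gene and a line at the mean of 5. The groups are apart for Plac8, Chil3 and Ace, with differences of -4.44, -7.22 and -4.53, and overlap for Ly6c2 and F10.

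Levels can be compared between genes only per length, so CPM was divided by the kilobases covered by each gene's annotated exons. In CD36-positive libraries Fn1 led with 20.6 ± 14.0 CPM per kb (SD, n = 5), followed by Plac8 with 4.98 ± 3.71 and Ly6c2 with 2.32 ± 1.56 CPM per kb. Chil3 (0.606 ± 0.879), F10 (0.425 ± 0.553), Vcan (0.359 ± 0.394) and Ace (0.0983 ± 0.112) came last in CPM per kb, and no neighbours in that order were further apart than their SDs. In CD36-negative libraries the order was Plac8 with 126 ± 45.4, Chil3 with 80.6 ± 30.3, Fn1 with 28.5 ± 12.8 and Ly6c2 with 25.4 ± 12.8 CPM per kb. Ace (3.65 ± 0.936), F10 (3.06 ± 0.952) and Vcan (0.274 ± 0.197) followed in CPM per kb. There Chil3 and Fn1, Ly6c2 and Ace, and F10 and Vcan were further apart than their SDs, and the other neighbours were not. Fn1 thus ranked above Plac8 and Chil3 in CD36-positive libraries and below both in CD36-negative ones, while Vcan lay near the foot of each order.

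Summed over Ly6c2, Plac8, Chil3, Ace and F10, the CD36-positive libraries 1, 2, 3, 4 and 7 held 24.9, 17.9, 10.4, 11.5 and 20.1 CPM. The CD36-negative libraries 1, 2, 4, 7 and 8 held 303.5, 458.3, 642.3, 282.5 and 457.9 CPM. Every CD36-negative library had counts of all 7 genes, and the CD36-positive ones had counts of 5 to 7. Among CD36-negative libraries, number 4 was the highest for 6 of the 7 genes, F10 being the exception. The CD36-positive libraries had no such common order, and the libraries that were highest differed by gene. The spread was also wider there, with an SD of log2 CPM of 1.77 in CD36-positive and 0.814 in CD36-negative libraries for Ly6c2, and of 1.37 in CD36-positive and 0.527 in CD36-negative libraries for Plac8. The CD36-positive values rest on few counts, 255 in all for Ly6c2. For Vcan the order was the other way, with 1.23 in CD36-positive and 1.72 in CD36-negative libraries.

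Genes were ranked by how closely their log2 CPM followed each of the 7 over the 10 libraries, each profile centred on its mean, among 9265 genes with enough expression. The distance is the root mean square difference in log2 units, given as a description since libraries share depth and group. Fn1 had the nearest partners, Adam15, a membrane metalloprotease, at 0.195 and Il6ra, the interleukin-6 receptor chain, at 0.308. Adam15 had 135, 78.7, 81.2, 211 and 116 CPM in CD36-positive libraries 1, 2, 3, 4 and 7. The CD36-negative values, in libraries 1, 2, 4, 7 and 8, were 101, 100, 236.5, 219 and 194 CPM. Like Fn1, it was high in CD36-positive library 4 and CD36-negative libraries 4, 7 and 8, and its groups overlapped.

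Plac8 was most like Mcemp1, a mast cell and myeloid membrane protein (0.529), and Slc4a8, a bicarbonate transporter (0.639). Ace was most like S1pr5, a sphingosine-1-phosphate receptor of NK cells and patrolling monocytes (0.655), and Il1r2, the decoy interleukin-1 receptor known from neutrophils (0.735). Ly6c2 was most like Ltb, lymphotoxin beta (0.806), and Dpp4, a peptidase of T cells and some dendritic cells (0.836). F10 was most like Saa3, an acute-phase protein (0.883), and Gna14, a G protein subunit (0.928). Vcan was nearest to Tmem237, a cilium protein (0.785), and Cebpb, a transcription factor (0.788), and Chil3 to Itgae, the integrin chain CD103 (1.11), and Xcl1, a chemokine of lymphocytes (1.29). The distance takes in the difference between groups, so partners chosen by it share a gene's direction, and their calls are no separate result. All of these partners of Plac8, Ace, Ly6c2, F10 and Chil3 were lower in CD36-positive cells by edgeR. Their log2 fold changes ran from -3.11 for Gna14 to -7.44 for Itgae, and the partners of Fn1 and Vcan did not pass.

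Other genes of classical monocytes were divided as well. Of 25 further genes on a list chosen with earlier results of these data known, 24 could be tested, and 3 were higher, 11 were lower and 10 did not pass by edgeR, with a median log2 fold change of -0.76. S100a6, a calcium-binding protein, averaged 6.97 ± 2.72 CPM in CD36-positive libraries against 216 ± 69.6 CPM in CD36-negative ones (SD, n = 5 each; log2 fold change -4.93, SE 0.31, adjusted p = 1.74e-07 by edgeR). S100a4, of the same family, fell by 4.72 and Napsa, the protease napsin A, fell by 4.45 on the log2 scale. The summed level of the list was 6294 to 13936 CPM in CD36-positive libraries against 8775 to 15132 CPM in CD36-negative ones, which overlapped. Lyz2, also on the border macrophage list and named after its values were seen, was the largest part of these sums. It averaged 5467 ± 2439 CPM in CD36-positive libraries against 6573 ± 1943 CPM in CD36-negative ones (SD, n = 5 each). The sums therefore say little about the genes of the list that fell. The genes that were higher, named after their values were seen, were Tgfbi, Ms4a4c (log2 fold change 0.81, adjusted p = 0.0105 by edgeR) and the immunoglobulin receptor gene Fcgr1 (0.97, adjusted p = 0.00388 by edgeR).

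Ccr2, the receptor that draws classical monocytes into tissue, was also named after its values were seen. It had 702, 408, 313, 255 and 380 CPM in CD36-positive libraries 1, 2, 3, 4 and 7. Its level in CD36-negative libraries 1, 2, 4, 7 and 8 was 433, 352, 504, 349 and 399 CPM. The groups overlapped fully, at means of 412 ± 173 CPM in CD36-positive libraries against 407 ± 64.1 CPM in CD36-negative ones (SD, n = 5 each). Its log2 fold change was 0.01 (SE 0.23, 95% confidence interval -0.48 to 0.51, adjusted p = 0.98 by edgeR). That interval lies outside those of Ly6c2, Plac8, Chil3 and Ace.

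Genes of non-classical monocytes, the Ly6C-low cells to whose panel Ace also belongs, gave 0 higher, 5 lower and 11 not passing of 16 tested by edgeR, with a median log2 fold change of -0.69. Adgre4, an adhesion receptor, fell by 3.85 (SE 0.45, adjusted p = 3.16e-05 by edgeR) and Eno3, a muscle enolase used as a marker of these cells, fell by 1.97 (SE 0.25, adjusted p = 6.93e-05 by edgeR) on the log2 scale. With CD36-positive 2 or 7 or CD36-negative 8 left out, 1 gene was higher. As single libraries were left out, 4 to 6 genes were lower. Spn, named after its values were seen, lost its call in 6 of 10 such fits. The list summed to 1700 to 2447 CPM in CD36-positive libraries against 1284 to 2322 CPM in CD36-negative ones. Cx3cr1, also on the homeostatic microglia list and named after its values were seen, was the largest part of these sums. It averaged 1188 ± 288 CPM in CD36-positive libraries against 998 ± 361 CPM in CD36-negative ones (SD, n = 5 each). Of 17 tested transcription factors of monocytes 1 was higher, 4 were lower and 12 did not pass, with a median of -0.15; the gene that was higher, Maf, lost its call when any of CD36-positive libraries 1 and 3 and CD36-negative libraries 1, 2, 7 and 8 was left out. Id2, an inhibitor of helix-loop-helix factors needed by dendritic and innate lymphoid cells, averaged 130 ± 32.0 CPM in CD36-positive libraries against 813 ± 413 CPM in CD36-negative ones (SD, n = 5 each; log2 fold change -2.64, SE 0.30, adjusted p = 2.62e-05 by edgeR). Klf4, a factor monocytes require, fell by 3.31 and Irf4, a factor of dendritic cells, fell by 2.48 on the log2 scale. Without CD36-positive library 3 Klf4 fell by 4.02.

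Markers of neutrophils, conventional dendritic cells and T and NK cells were mostly lower, as were the genes that fell. Of 13 tested neutrophil genes 10 were lower and 0 higher by edgeR (median log2 fold change -5.51), and the list of 19 summed to 95.6 to 195 CPM in CD36-positive libraries against 384 to 972.5 CPM in CD36-negative ones. Retnlg, Ly6g, Ngp, G0s2 and Mpo were at 0 in every CD36-positive library and Elane in all 10. Of 17 tested genes of conventional dendritic cells 16 were lower and 0 higher (median -3.93), with sums of 68.7 to 136 CPM in CD36-positive libraries against 999 to 1696 CPM in CD36-negative ones. Of 11 tested T and NK cell genes 10 were lower and 0 higher (median -4.26), with sums of 16.9 to 84.9 CPM in CD36-positive libraries against 251.7 to 765 CPM in CD36-negative ones, and Prf1 was at 0 in every CD36-positive one. None of these 3 sums overlapped between groups. With single libraries left out, 9 to 10 of the neutrophil, 15 to 16 of the dendritic cell and 7 to 12 of the T and NK cell genes were lower. Cd2, Lck and Cd3g, named after their values were seen, lost their calls in 9, 6 and 4 of 10 such fits. The other T and NK cell genes that were lower kept theirs. Xcr1 of the dendritic cell list and Lcn2 of the neutrophil list, also named after their values were seen, lost theirs in 9 and 6. Neutrophils are known to hold Chil3, and dendritic and NK cells Plac8. Their part in the lower values of Ly6c2, Plac8, Chil3, Ace and F10 was not tested.

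Markers of resident and vascular cells were also summed. Of 15 tested genes of homeostatic microglia 1 was higher, 0 were lower and 14 did not pass by edgeR (median log2 fold change 0.26), with sums of 10480 to 21280 CPM in CD36-positive libraries against 9475 to 22741 CPM in CD36-negative ones. The gene that was higher, Tgfbr1, lost its call in 7 of 10 fits without 1 library. Of 14 tested genes of border macrophages 5 were higher and 2 lower (median -0.11). As single libraries were left out, 3 to 4 were higher and 2 to 3 lower. The 3 higher came with CD36-positive 2 or any of CD36-negative 2, 7 and 8 left out. Of 6 tested endothelial, pericyte and stromal genes, cells that are known for Ace and Fn1, 2 were lower and 0 higher (median -1.41), with sums of 15.4 to 26.0 CPM in CD36-positive libraries against 32.2 to 47.8 CPM in CD36-negative ones, and Cldn5 was at 0 in every CD36-positive one. Pecam1 lost its call in 6 and Flt1 in 2 of 10 fits without 1 library. Photoreceptor genes gave 2 lower and 0 higher of 13 tested, and from 0 to 10 lower as single libraries were left out (10 without CD36-positive library 2). Müller glia and astrocyte genes gave 1 higher and 2 lower of 9, and 1 to 3 lower with a library left out. The B cell and pigment epithelium lists had 2 tested genes each, of which 0 passed in either direction.

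**Figure D4:**
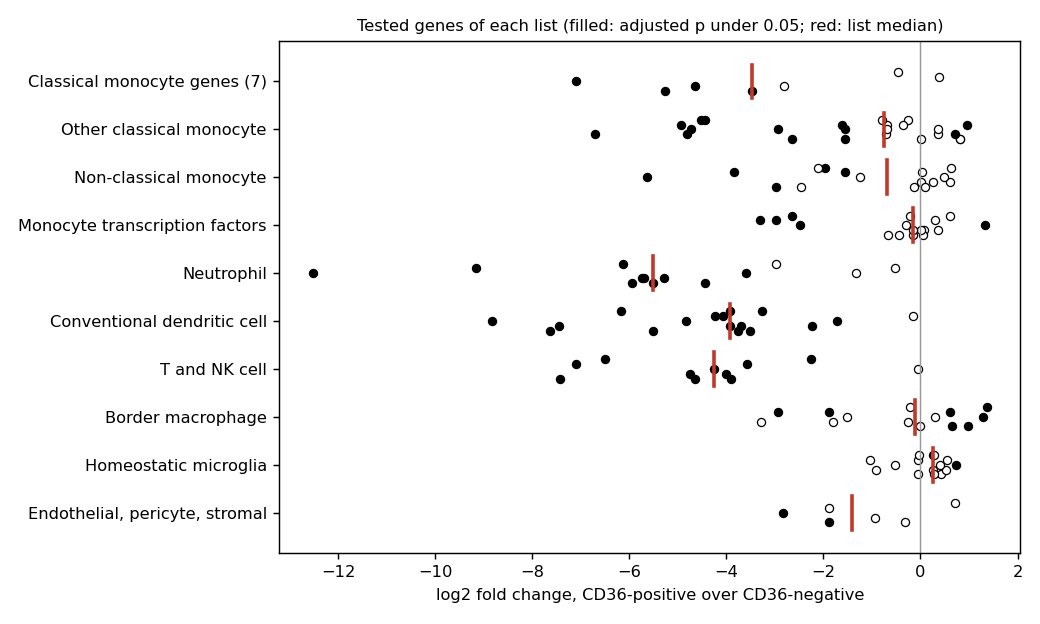
Log2 fold change, CD36-positive over CD36-negative, of the tested genes of 10 lists, filled where the adjusted p was under 0.05 by edgeR, with the list median in red; fitted values of genes at 0 in every CD36-positive library depend on the prior count. Medians are -3.46 for the 7 genes, -0.76 for other classical monocyte genes, -5.51 for neutrophils, -3.93 for conventional dendritic cells, -4.26 for T and NK cells and 0.26 for homeostatic microglia.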

How the data were processed

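RNA was sequenced from 10 sorted mouse samples, and the table the authors deposited held estimated counts per gene symbol (expected counts, 91.9% of them whole numbers), not normalized, per the file headers. StringTie 1.3.1, HISAT2 2.1.0, Bowtie2 2.2.8, fastp 0.18.0 and the build mm10 are named in the submitters' processing notes. The counting program and whether it used the strand are not given in the sources used here. Of 22008 lines, 8 broken and 131 repeated lines were dropped, and of 3 symbols on 2 lines the line with the higher mean was kept, leaving 21866 genes. No symbol of the 7 genes lay within 2 lines of such damage.

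Estimated counts were rounded and low ones removed (filterByExpr, minimum count 10). After TMM scaling, edgeR 4.0.16 under R 4.3.3 fitted a quasi-likelihood model of group alone, and p-values were adjusted by Benjamini and Hochberg with a threshold of 0.05. Tested on simulated data for this comparison (3 simulations of 11405 genes, 200 of them changed), it recovered 44.4% of 2-fold and 81.6% of 4-fold changes, with 3.12% of calls false. The simulated counts were independent and used the fit's dispersion alone, without its gene-by-gene quasi-likelihood spread or outlying libraries. Rates in the real data may therefore differ. DESeq2 1.42.0 and limma 3.58.1 served as alternatives. Replicate libraries differed by more than sampling noise (chi-square per degree of freedom 22.1 to 109).

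The genes and lists were chosen with earlier results of these data known. Named genes were the 7 members, the sorted markers, near copies, the 3 genes of smallest p in each list and the 2 nearest profiles to each member. Tmem119, P2ry12, Maf, Chil1, genes at 0 and those so marked in the text were named after their values were seen. Coordinates of genes are GENCODE M21 on GRCm38. Single-cell and spatial data of the study were not analysed here.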

Additional observations from a re-analysis of the deposited data

Results flagged for a closer look

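For 12 genes (the 7 genes, Ly6c1, Cd36, Itgam, Ptprc and Ccr2) 24 groups of 5 libraries were examined, and 2 held a library whose gap to the nearest other exceeded 0.71 of the group's range, and about 1 in 20 groups does so by chance. Vcan stood at 15.2 CPM in CD36-positive library 1, and the other 4 libraries of that group held 1.57 to 4.14 CPM. Fn1 stood at 525 CPM in CD36-positive library 4, and the other 4 libraries held 129 to 222 CPM.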

How the results depend on the processing

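The calls on Ly6c2, Plac8, Chil3 and Ace and their directions held under all alternatives run (scaling, filters, leaving out libraries, replicate block, other tests and thresholds), with adjusted p of at most 0.0164, 0.000235, 0.00138 and 0.00214. Leaving out 1 library at a time gave log2 fold changes of -3.78 to -3.15 for Ly6c2, -5.03 to -4.40 for Plac8, -8.14 to -6.70 for Chil3, -5.95 to -4.94 for Ace, -3.48 to -2.48 for F10, -0.98 to -0.27 for Fn1 and -0.57 to 0.74 for Vcan. By limma's voom Chil3 was -9.01, Ace -6.05 and Ly6c2 -4.21, and with the description number as a replicate block Chil3 was -8.31. F10 passed with no filter (-2.83, adjusted p = 0.0375 by edgeR), by DESeq2 (-2.84) and by voom (-4.13); the cause was not tested. Vcan turned to -0.29 with a block by description number, -0.10 with a block by title number, -0.57 without CD36-positive library 1 and -0.85 without the 2 shallowest CD36-positive libraries. F10 and Vcan were left out by a filter of 10 CPM in 5 libraries. Genes called numbered 853, against 554 without CD36-negative library 4 (554 to 955 over libraries left out), 420 at an adjusted p of 0.01 and 220 when tested against a log2 fold change of 1. Of the list genes 78 were called, against 47 in that last test. Whether libraries of 1 number were paired is not stated. Their deviations from the group means correlated at 0.0287 to 0.133 by description number and -0.0216 to 0.133 by title number. Such correlations cannot settle whether the samples shared an animal or a pool. The replicate block changed the call of none of the 7 genes. Among counts per list and ratios, 681 values kept their call or stayed within 1.5 times of the reported count and 130 did not. The ratios to Fn1 kept their direction under a prior count of 0.5 and with each library left out; the prior moved Chil3 to -8.45, Ace to -5.27 and F10 to -3.96. Chil3 and Ace rested on 38 and 20 counts in the CD36-positive group, so their fold changes are less precise than their calls.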
